A study of Mus musculus with 88 samples.

Results

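The genes described here encode the proteins with which a heart muscle cell stores, releases and clears calcium. They are the pump Atp2a2, the store proteins Hrc, Casq1 and Casq2, the release channel Ryr2, the pump inhibitors Pln and Sln, and the exchanger Slc8a1. Members were taken by gene symbol: a probe set, the group of short probes that reports 1 transcript on the array, was used where the platform annotation gives it 1 of these symbols alone. Of the 8 named genes, 7 had a probe set, with 9 of the 12488 probe sets among them, and 6 were bright enough to be tested with 5685 genes in all. Pln had no probe set with its symbol alone and was not analysed here. Sln was dim on all arrays, and its probe set fell below the filter on low signals.

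RNA came from whole hearts of mice with 1 array per mouse, and all mice lacked apolipoprotein E. The mice called dKO (SR-BI-/- apoE-/-) also lacked SR-BI, a receptor for high-density lipoprotein that Scarb1 encodes. The mice called HET (SR-BI+/- apoE-/-) kept 1 Scarb1 allele and served as controls. The ages were 21, 31 and 43 days. The diet was either chow or feed with probucol, an antioxidant that lowers blood lipids. On probucol there were 6, 8 and 6 dKO hearts at the successive ages, and on chow 10, 10 and 12 dKO hearts. The HET groups had 3, 3 and 2 hearts on probucol and 9, 10 and 9 hearts on chow. The design text describes chow-fed dKO hearts as free of overt coronary disease at the youngest age, with small infarcts and failure at the middle age, and with large infarcts and severe failure at the oldest. Many dKO mice had died by the last age per that text, so the oldest dKO chow hearts came from mice still alive then. The labels do not give strain, sex, dose of probucol or the start of the diet.

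In a heartbeat, calcium that enters the cell opens Ryr2 channels in the sarcoplasmic reticulum, and the calcium set free makes the filaments contract. Relaxation follows when the pump encoded by Atp2a2 (SERCA2) returns calcium to the store and the exchanger encoded by Slc8a1 (NCX1) carries it out of the cell. Casq1, Casq2 and Hrc bind calcium inside the store, while phospholamban (Pln) and sarcolipin (Sln) hold the pump back. Lower SERCA2 and a relatively higher exchanger are textbook features of failing heart muscle.

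The promoters of the 4 store and channel genes with lower signal in dKO chow hearts at 43 days and an entry in the RefSeq table are shown first, since the results turn on these genes. Each runs 5′ to 3′ in the direction of the gene over the 250 bases before its start (RefSeq, GRCm38.p6). Capitals mark each E-box (CANNTG), the core motif of muscle and other basic helix-loop-helix factors, and in Casq2 also a MEF2 site.
Hrc, chr7:45335019-45335268, plus strand: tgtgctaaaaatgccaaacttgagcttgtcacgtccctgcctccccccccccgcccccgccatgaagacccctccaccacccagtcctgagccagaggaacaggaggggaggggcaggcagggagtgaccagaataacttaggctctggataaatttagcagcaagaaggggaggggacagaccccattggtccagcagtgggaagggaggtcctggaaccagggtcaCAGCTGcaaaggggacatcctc
Casq1, chr1:172219896-172220145, minus strand: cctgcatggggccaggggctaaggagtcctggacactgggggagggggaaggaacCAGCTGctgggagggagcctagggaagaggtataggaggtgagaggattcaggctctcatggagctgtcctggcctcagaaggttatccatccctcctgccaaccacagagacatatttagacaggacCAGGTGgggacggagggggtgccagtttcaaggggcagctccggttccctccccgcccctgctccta
Casq2, chr3:102086165-102086414, plus strand: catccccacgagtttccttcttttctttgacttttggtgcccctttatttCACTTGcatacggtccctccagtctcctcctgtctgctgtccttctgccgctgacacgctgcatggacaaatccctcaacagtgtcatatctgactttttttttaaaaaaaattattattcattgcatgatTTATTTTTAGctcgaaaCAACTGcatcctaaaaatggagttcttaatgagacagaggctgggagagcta
Ryr2, chr13:12106946-12107195, minus strand: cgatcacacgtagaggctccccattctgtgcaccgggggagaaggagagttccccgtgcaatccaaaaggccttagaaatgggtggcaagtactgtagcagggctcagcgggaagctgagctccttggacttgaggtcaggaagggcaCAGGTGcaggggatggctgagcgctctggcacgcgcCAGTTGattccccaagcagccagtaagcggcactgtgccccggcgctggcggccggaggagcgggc

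Hrc held CAGCTG 22 bases before its start. Casq1 held the same 6 letters 195 bases before its start and CAGGTG 67 bases before it. Casq2 held CACTTG at 200 bases, CAACTG at 52 bases and a match to the MEF2 motif, a site bound by a muscle transcription factor, at 69 bases. Ryr2 held CAGGTG at 102 bases and CAGTTG at 66 bases. E-boxes on either strand were in 66.2% of all 32851 promoter windows of this length, CAGCTG in 13% and the MEF2 motif in 2.92%, and neither TATAAA nor the CArG box was found in the 4 windows. CAGCTG is itself an E-box, so its search overlaps that for E-boxes, and CAGGTG was not searched on its own. A match describes letters in the window and is not a measured binding site. Promoters of Pln and Slc8a1 were also in the table but are not shown. Pln had no probe set with its symbol alone and could not be tested, and Slc8a1 was not called at 43 days.

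Signals under 4.22, which marks the 10th percentile over the whole table, were raised to that value and turned into log2 values. A member was called where limma's moderated test over all 88 arrays gave a Benjamini-Hochberg adjusted p under 0.05 across the 5685 genes. All differences below are on the log2 scale and all adjusted p-values come from this fit unless another is named. Probes differ in brightness for reasons of their own, so signals are compared between groups for 1 probe set and never between genes. Where hearts of a group lie below or above all those of another, this is given for the members alone. How many of all genes separate in that way was not counted, so such separation only describes the member. The signal reports RNA per amount of heart RNA, and in bulk hearts fewer heart muscle cells and less RNA per cell cannot be told apart.

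The arrays were unequal in brightness, with a median signal of 27.8 to 75.4, and the median difference over all genes between dKO and HET chow hearts was -0.10, 0.18 and 0.26 at 21, 31 and 43 days. A change of a member is therefore read against these shifts, and scalings that remove them are given beside the main comparisons. The arrays also fell into 2 sets, 20 arrays against 68, by the signal of genes picked for a pattern of variation within groups. That signal was not freed of group means, so the sets can also reflect group. The smaller set held 6 of 10 dKO chow hearts at 21 days and none at the later ages, against 2 of 9, 6 of 10 and 3 of 9 HET chow hearts. As a check of the genotype, Scarb1 had chow differences (dKO minus HET) of -1.58 ± 0.17, -0.75 ± 0.17 and -0.69 ± 0.16 (SE) at the 3 ages. Apoe, which all these mice lack, had group means of 2.18 to 3.99 in log2 signal over its 2 probe sets and the 12 groups, beside a floor of 2.08.

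Markers of other cells moved with the disease groups, and their part in the results below was not tested. All 11 macrophage markers were higher in dKO than in HET chow hearts at 43 days, with summed signals of 10789 to 21830 in dKO hearts and 1806 to 4085 in HET hearts. Of 7 fibroblast markers, 6 were higher, and over all genes 37.3% were called higher and 11.6% lower. Of 13 ventricular heart muscle markers, 8 were lower and none was higher, with summed signals of 44487 to 51052 in dKO hearts and 56575 to 62267 in HET hearts. On probucol at 43 days, dKO hearts had summed signals of 2478 to 2974 for the macrophage markers and 61635 to 67021 for the heart muscle markers. Of 5 tested skeletal muscle markers, a check for Casq1, none was called between the genotypes on chow at any age as deposited, but 2 were lower in dKO hearts at 43 days after quantile normalization and 2 after median centring, while 2 were higher relative to heart muscle markers. Of all 5685 genes, 1521 and 1588 were lower after these 2 scalings, and 3650 were higher relative to heart muscle markers.

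The store proteins Hrc, Casq1 and Casq2, the pump gene Atp2a2 and the channel gene Ryr2 were lower in dKO than in HET hearts on chow at 43 days, 5 of 6 members tested, against 11.6% of all genes called lower. At 31 days Hrc and Casq2 were lower, 2 of 6 members against 3.91% of all genes, and at 21 days only Casq2 among the tested members, 1 of 6 against 1.39%. The background at 21 days was unsteady: 79 genes were lower there, against 48 without dKO chow replicate 2, whose description names another age, and 5 within the larger array set. Slc8a1 was called at no age. Hrc had by far the largest difference of the 6 at 43 days, and the plot of signals by group shows its dKO chow hearts of that age below every heart of the other 3 groups of that age.

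**Figure D1:**
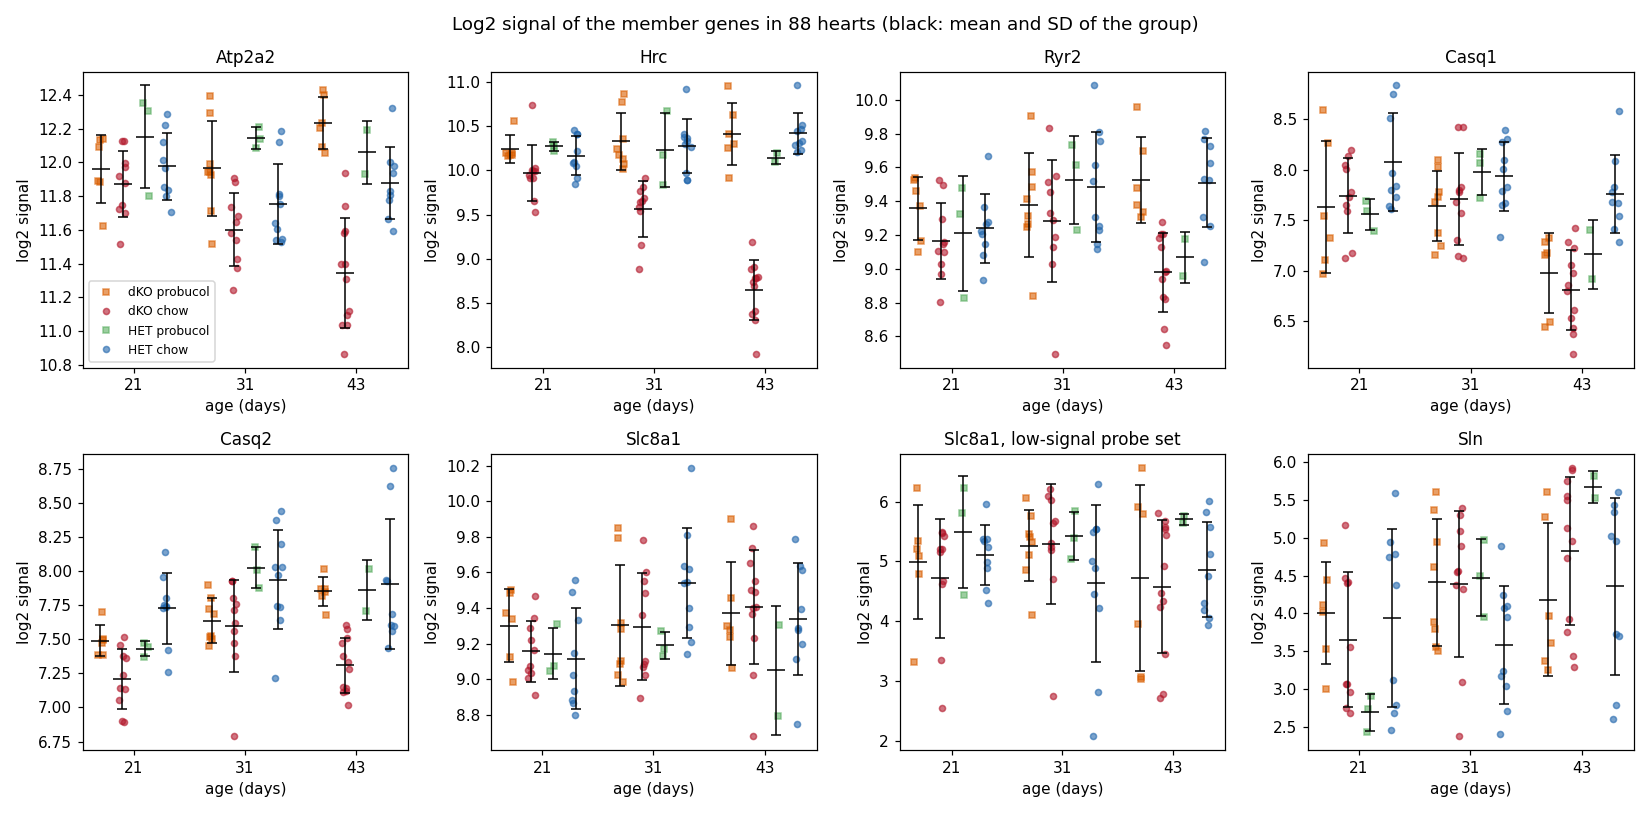
Signal (log2) of the 9 probe sets apart from the dimmest one of Slc8a1, by age in days and, within each age, by group (dKO probucol, dKO chow, HET probucol, HET chow). Points are hearts, black marks are group means with SD, and scales differ between panels. The 12 dKO chow hearts at 43 days lie between 242 and 586 in linear signal for Hrc, below all HET chow hearts of that age.

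Hrc encodes the histidine-rich calcium-binding protein of the store. At 21 days its signal had a lowest, median and highest value of 742, 1003 and 1718 in dKO chow hearts, against 921, 1098 and 1404 in HET chow hearts. At 31 days these values were 473, 804 and 964 in dKO hearts and 949, 1276 and 1935 in HET hearts. At 43 days they were 242, 434 and 586 in dKO hearts and 1188, 1295 and 1997 in HET hearts. The groups overlapped at 21 days, 9 of 10 dKO hearts lay below every HET heart at 31 days, and 12 of 12 did so at 43 days. The differences were -0.20 ± 0.13 (SE, adjusted p = 0.473), -0.71 ± 0.13 (adjusted p = 1.17e-05) and -1.77 ± 0.13 (adjusted p = 7.25e-22), the last of them 3.41-fold lower. The difference itself changed between 21 and 43 days by -1.57 ± 0.18 (adjusted p = 2.79e-11), where 6.1% of genes changed downward. Between 21 and 31 days it changed by -0.51 ± 0.18 (adjusted p = 0.0458), where 0.475% of genes changed downward, and this smaller step lost its call in 10 of 21 alternative settings.

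Atp2a2, the SERCA2 pump, had signals of 2930, 3815 and 4479 in dKO chow hearts at 21 days (lowest, median, highest), against 3335, 4011 and 4991 in HET chow hearts. At 31 days it had 2426, 3131 and 3846 in dKO hearts and 2956, 3327 and 4654 in HET hearts. At 43 days it had 1863, 2620 and 3922 in dKO hearts and 3096, 3645 and 5115 in HET hearts. The groups overlapped at the first 2 ages, and at 43 days 10 of 12 dKO hearts lay below every HET heart. The difference of -0.54 ± 0.10 at 43 days was 1.45-fold (adjusted p = 5.79e-06), while -0.11 ± 0.11 at 21 days and -0.15 ± 0.10 at 31 days did not pass (adjusted p = 0.667 and 0.296). Its change between 21 and 43 days was -0.43 ± 0.15 (adjusted p = 0.015). The probe set carries the suffix _s_at, the maker's mark for probes that match more than 1 transcript, so signal from related transcripts cannot be told apart from that of Atp2a2.

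Ryr2, the channel that releases calcium from the store, had signals of 447, 559 and 738 in dKO chow hearts at 21 days, against 488, 598 and 812 in HET chow hearts. At 31 days it had 361, 634 and 913 in dKO hearts and 556, 682 and 1087 in HET hearts. At 43 days it had 375, 507 and 622 in dKO hearts and 527, 740 and 901 in HET hearts. At that last age 7 of 12 dKO hearts lay below every HET heart. The difference there was -0.53 ± 0.12 (1.44-fold lower, adjusted p = 0.000103), against -0.08 ± 0.12 and -0.20 ± 0.12 at the younger ages (adjusted p = 0.802 and 0.224), and the change between 21 and 43 days was -0.45 ± 0.17 (adjusted p = 0.0284).

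Casq2 is the calsequestrin of heart muscle and Casq1 that of fast skeletal muscle. Casq2 had signals of 119, 146 and 183 in dKO chow hearts at 21 days, against 153, 214 and 282 in HET chow hearts. At 31 days it had 110, 203 and 243 in dKO hearts and 149, 256 and 346 in HET hearts. At 43 days it had 130, 159 and 194 in dKO hearts and 173, 206 and 433 in HET hearts. Below every HET heart lay 6 of 10, 1 of 10 and 8 of 12 dKO hearts at the successive ages, so the groups overlapped least at 43 days. The differences were -0.52 ± 0.13 (adjusted p = 0.014), -0.34 ± 0.13 (adjusted p = 0.0369) and -0.59 ± 0.12 (1.51-fold lower, adjusted p = 3.58e-05), and their change between 21 and 43 days was -0.08 (adjusted p = 0.757). That change was called after quantile normalization, at -0.50 (adjusted p = 0.00936), and after median centring, at -0.64 (adjusted p = 0.00103). The call at 21 days was lost within the larger array set and under median centring, 2 of the settings in which no member was lower at that age.

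Casq1 signals were 140, 216 and 294 in dKO chow hearts at 21 days, against 195, 229 and 458 in HET chow hearts. At 31 days they were 140, 213 and 345 in dKO hearts and 161, 242 and 336 in HET hearts. At 43 days they were 72.2, 114 and 172 in dKO hearts and 156, 205 and 384 in HET hearts. Only at the last age did most dKO hearts, 10 of 12, lie below every HET heart. The difference was -0.95 ± 0.18 there (1.93-fold lower, adjusted p = 5.04e-06), with -0.33 ± 0.19 and -0.22 ± 0.18 before (adjusted p = 0.384 and 0.386). Its change of -0.62 ± 0.26 between 21 and 43 days (adjusted p = 0.0483) lost its call in 12 of 21 alternatives. The summed signal of 9 skeletal muscle markers on the array spanned 500 to 979 in dKO hearts and 472 to 1117 in HET hearts at 43 days, so the groups overlapped, with Myh1, Myh2, Tnni2 and Tnnt3 near the floor.

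Slc8a1, the sodium-calcium exchanger of the cell surface, had signals of 482, 556 and 707 in dKO chow hearts at 21 days, against 446, 521 and 754 in HET chow hearts. At 31 days it had 475, 604 and 880 in dKO hearts and 565, 746 and 1167 in HET hearts. At 43 days it had 410, 698 and 932 in dKO hearts and 431, 625 and 883 in HET hearts, so the groups overlapped over nearly their whole range. The difference at 43 days was 0.07 ± 0.12 (adjusted p = 0.674), with a 95% confidence interval of -0.18 to 0.31. Its other probe sets were dim. The second had a median of 37.0 over all arrays and gave -0.28 ± 0.43 at 43 days (adjusted p = 0.661, limma on every probe set), and the last had a median of 5.66, with 38 of 88 arrays at the floor.

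Sln encodes sarcolipin, a small inhibitor of the pump that is found mainly in atrial muscle of the mouse heart. Its signals ranged from 5.16 to 61.1 over all arrays, with none at the floor and a median of 18.1. At 43 days it had 9.77, 33.1 and 61.1 in dKO chow hearts and 6.07, 31.2 and 48.7 in HET chow hearts, which overlapped widely. In a fit without the filter on low signals, the genotype differences on chow were -0.29, 0.82 and 0.47 at the successive ages (adjusted p = 0.758, 0.167 and 0.394). Of 7 atrial markers, 2 were higher and 2 lower in dKO chow hearts at 43 days, against 37.3% and 11.6% of all genes. The atrial markers had summed signals of 4216 to 8044 in dKO and 6227 to 9325 in HET hearts.

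Heart muscle markers were themselves lower in the diseased hearts, so the members were also set against them. Each array was centred on the mean log2 signal of the 13 ventricular heart muscle markers, a scaling chosen after the data had been seen. That mean was 10.97, 10.89 and 10.77 in dKO chow hearts and 11.11, 11.03 and 11.11 in HET chow hearts at the successive ages. Relative to it, Hrc was still lower in dKO than in HET chow hearts at 43 days, at -1.42 ± 0.13 (adjusted p = 2.35e-17), and Casq1 at -0.60 ± 0.18 (adjusted p = 0.00215), where 4.94% of genes were called lower. The markers were uneven, and on this scale 6 of the 13 were themselves called lower and 5 higher at 43 days. As deposited, their differences at that age ran from -1.71 to 0.85. Atp2a2, Casq2 and Ryr2 no longer passed, with -0.19 (adjusted p = 0.0803), -0.25 (adjusted p = 0.0782) and -0.18 (adjusted p = 0.142). Slc8a1 was higher by 0.41 ± 0.12 (adjusted p = 0.0014), where 64.2% of genes were called higher, so its rise on this scale is shared by most genes. At 31 days only Hrc of the 6 was called on this scale, at -0.58 ± 0.13 (adjusted p = 0.000226). Of all genes, 79 were called lower there and 1947 higher.

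**Figure D2:**
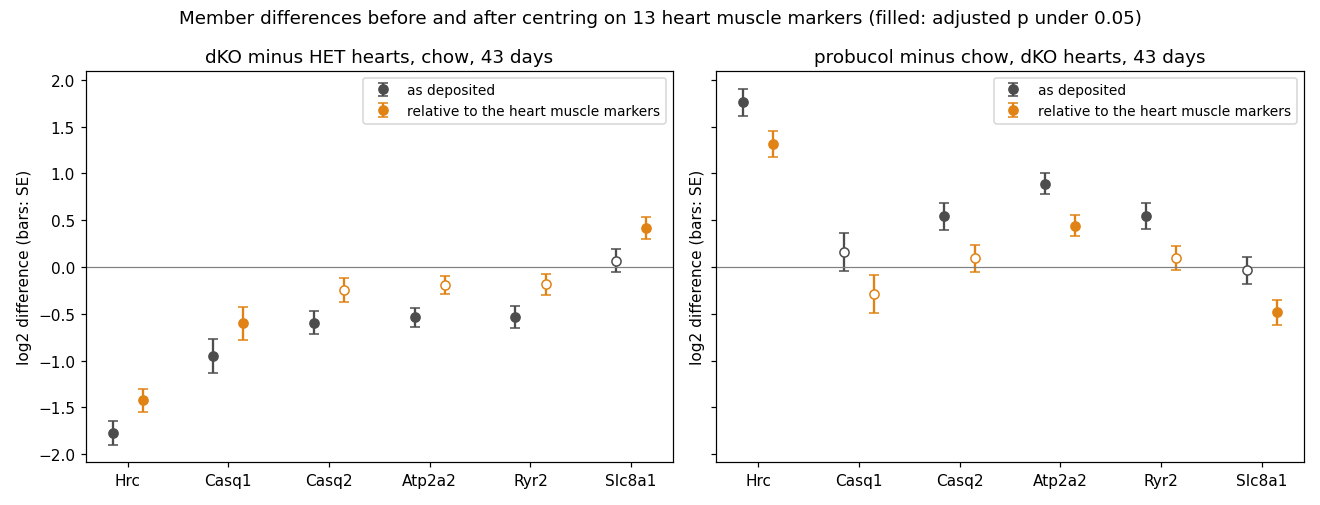
Log2 differences at 43 days for the 6 members, dKO minus HET on chow and probucol minus chow in dKO hearts, as deposited and after each array was centred on 13 heart muscle markers. Bars are SE, and Hrc stays lowest for genotype on both scales, at -1.77 as deposited and -1.42 centred.

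With each array centred on its median over all genes instead, all 5 lower members at 43 days kept their call with larger differences, of -2.12 for Hrc, -1.30 for Casq1, -0.94 for Casq2 and -0.88 for both Atp2a2 and Ryr2, and Slc8a1 had -0.28 (adjusted p = 0.0818). This scaling moved the median difference over all genes from 0.26 to -0.08. It called 1588 of 5685 genes lower, against 657 as deposited. The same 5 members passed with array set as a blocking factor and in a fit of the larger array set alone, in which Hrc had -1.79 (adjusted p = 2.91e-21) and -1.85 (adjusted p = 5.16e-17). Of all genes, 675 and 638 were lower in these fits, in that order. The log2 ratio of the 3' to the 5' actin control, a measure of RNA quality, averaged 0.17 in dKO and 0.11 in HET chow hearts at 43 days, and with it as a covariate 5 members were lower, beside 663 of all genes. The same ratio for the Gapdh control averaged 0.05 in dKO and -0.21 in HET chow hearts (SD 0.41 and 0.17), and with that ratio as a covariate 5 members were lower too, with Hrc at -1.78 (adjusted p = 2.28e-20). In that fit 550 of all genes were lower.

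Probucol was compared with chow within dKO hearts, to ask what the drug does to these genes in the diseased genotype. Hrc, Atp2a2, Ryr2 and Casq2 were higher on probucol at 43 days, 4 of 6 members, where 8.18% of genes were called higher. At 31 days Hrc and Atp2a2 were higher, 2 of 6 against 2.13% of genes. At 21 days no member passed in limma (0 of 6), and 0% of genes were called higher. The dKO chow hearts enter both this and the genotype comparison, so the 2 sets of differences share samples.

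Hrc had signals of 1147, 1167 and 1512 in dKO probucol hearts at 21 days (lowest, median, highest), 1034, 1184 and 1864 at 31 days, and 967, 1313 and 1992 at 43 days. At 31 days 8 of 8 probucol hearts lay above all dKO chow hearts, and at 43 days 6 of 6. Its difference was 0.27 ± 0.15 (adjusted p = 0.634), 0.76 ± 0.14 (1.70-fold higher, adjusted p = 5.94e-06) and 1.76 ± 0.14 (3.39-fold higher, adjusted p = 1.45e-18). Over the 21 alternatives the difference at 43 days ran between 1.31 and 2.15 and was always called.

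Atp2a2 had signals of 3157, 4083 and 4513 in dKO probucol hearts at 21 days, 2929, 3941 and 5387 at 31 days, and 4252, 4765 and 5511 at 43 days. At the last age 6 of 6 probucol hearts lay above all dKO chow hearts, whose highest was 3922. The differences were 0.09 ± 0.12 (adjusted p = 0.919), 0.36 ± 0.11 (adjusted p = 0.00737) and 0.89 ± 0.12 (adjusted p = 3.24e-10). The last remained called when arrays were centred on heart muscle markers, at 0.44 ± 0.11 (adjusted p = 0.000386). On that scale 4 of the 13 markers were themselves called higher and 4 lower.

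Ryr2 had 634, 689 and 994 in dKO probucol hearts at 43 days, against 375, 507 and 622 in dKO chow hearts, with no overlap and a difference of 0.54 ± 0.14 (adjusted p = 0.000478). Casq2 had 205, 232 and 259 on probucol, against 130, 159 and 194 on chow, again with no overlap, and a difference of 0.54 ± 0.14 (adjusted p = 0.000927). The share of all genes without overlap in this comparison was not counted, and 45.9% were called in either direction. At the younger ages neither was called. Ryr2 had 549, 683 and 743 in dKO probucol hearts at 21 days and 457, 658 and 960 at 31 days, and Casq2 had 167, 179 and 208 and then 174, 195 and 238, all overlapping the chow hearts of their age. Centred on heart muscle markers, Ryr2 had 0.10 and Casq2 0.09, and neither was called.

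Casq1, Slc8a1 and Sln were not called on the drug. At 43 days the Casq1 signals were 87.2, 144 and 160 in dKO probucol hearts, against 72.2, 114 and 172 in dKO chow hearts, which overlapped, with a difference of 0.16 ± 0.20 (adjusted p = 0.543). Slc8a1 had 534, 624 and 956 in dKO probucol hearts, against 410, 698 and 932 in dKO chow hearts, also overlapping, with -0.04. Under median centring Casq1 was higher on probucol, by 0.55 (adjusted p = 0.0105), and relative to heart muscle markers Slc8a1 was lower, at -0.49 ± 0.13 (adjusted p = 0.000915). At 21 and 31 days on probucol, Casq1 had medians of 174 and 210, Slc8a1 of 654 and 585, and Sln of 16.7 and 19.7, with differences of -0.11 and -0.07 for Casq1 and 0.14 and 0.01 for Slc8a1, none of them called. At 43 days Sln had 9.55, 13.9 and 48.6 in dKO probucol hearts and 9.77, 33.1 and 61.1 in dKO chow hearts, with -0.64 in the fit without a filter (adjusted p = 0.312).

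**Figure D3:**
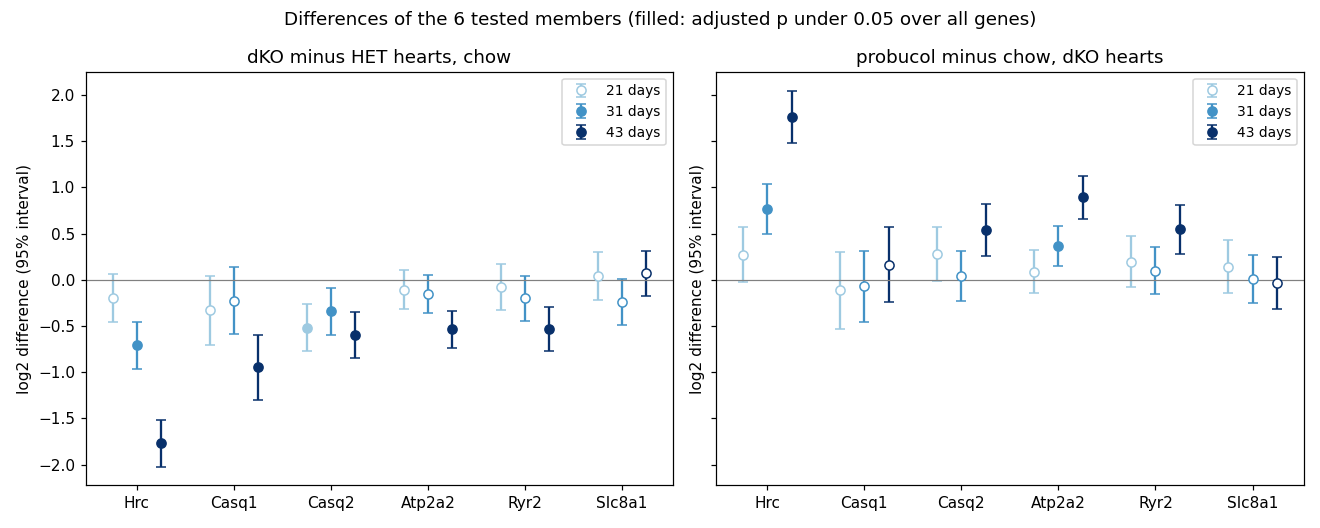
Log2 differences of the 6 tested members by age in days, for dKO minus HET on chow and for probucol minus chow in dKO hearts, with 95% confidence intervals. Filled marks have an adjusted p under 0.05, and Hrc runs down to -1.77 for genotype and up to 1.76 for probucol at 43 days.

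In HET hearts, where groups on probucol held 2 or 3 mice, no member was called at any age or over the ages averaged (0 of 6 in limma). Genes called in either direction there were 0.387%, 0.58% and 0.141% of all at the successive ages, and 2.67% over the ages averaged. Hrc had signals of 1172 and 1091 in the 2 HET probucol hearts at 43 days, below the lowest HET chow heart at 1188. Atp2a2 had 5227, 3575 and 5058 in the HET probucol hearts at 21 days, 4512, 4341 and 4740 at 31 days, and 3898 and 4678 at 43 days, with 2 hearts at 21 days and 1 at 31 days above every HET chow heart of their age. Ryr2 had 641, 453 and 713, then 601, 852 and 783, and last 578 and 497. Casq1 had 194, 207 and 168, then 268, 285 and 212, and last 121 and 170, with 1 of the last pair below every HET chow heart of that age. Averaged over ages, Atp2a2 had 0.25 ± 0.09 (adjusted p = 0.146), Casq1 -0.36 ± 0.17 (adjusted p = 0.272) and Hrc -0.07 ± 0.12 (adjusted p = 0.815).

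The response to probucol differed between the genotypes for 3 members at 43 days, tested as the effect in dKO minus the effect in HET hearts. Only 2 HET probucol hearts of that age enter these tests. Hrc had 2.04 ± 0.27 (adjusted p = 5.26e-09), Ryr2 0.99 ± 0.25 (adjusted p = 0.00204) and Atp2a2 0.71 ± 0.21 (adjusted p = 0.0115), where 5.42% of genes had a higher response in dKO hearts. For Ryr2 the HET means at 43 days were 9.07 on probucol and 9.51 on chow, a difference not called on its own. Over the alternatives Hrc was always called at 43 days, while Atp2a2 lost its call in 2 and Ryr2 in 1. At 31 days Hrc alone of the 6 was called, with 0.81 ± 0.23 (adjusted p = 0.0172) against 0.668% of genes, and it lost its call in 2 alternatives. At 21 days no member was called, with 0.106% of genes called in either direction. Averaged over ages, Hrc had 1.005 ± 0.14 (adjusted p = 4.17e-08), Ryr2 0.42 ± 0.13 (adjusted p = 0.0169) and Casq2 0.37 ± 0.14 (adjusted p = 0.0497), where 5.44% of genes were called higher, and Casq2 lost its call in 15 of 29 alternatives.

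Between dKO and HET hearts that both received probucol, no member was called (0 of 6), and neither were nearly all genes, with 0%, 0% and 0.0176% called at the successive ages and 0.088% over the ages averaged. Hrc differed by 0.11 ± 0.12 over the ages averaged (adjusted p = 0.991). The HET probucol groups of 2 or 3 hearts limit the precision of these differences. Scarb1 itself was not called here at a single age, at -0.81, -1.04 and -1.26 (adjusted p = 0.496, 0.492 and 0.118). It was called over the ages averaged, at -1.04 ± 0.16 (adjusted p = 2.53e-05). A missing call at a single age therefore does not show that the genotypes were alike.

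dKO hearts on probucol were also set against HET hearts on chow. Casq1 was lower at 43 days, at -0.78 ± 0.21 (adjusted p = 0.0455), with 5 of 6 dKO probucol hearts below every HET chow heart, where 0.827% of genes were called lower. That call was lost in 10 of 21 alternatives. At 21 and 31 days no member was lower, against 0.0352% and 5.33% of genes. Hrc at 43 days differed by -0.01 ± 0.15, with a 95% interval of -0.31 to 0.29, and Atp2a2 by 0.35 ± 0.12 (adjusted p = 0.143).

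In HET chow hearts 1 member was called with age. Slc8a1 was higher at 31 than at 21 days by 0.42 ± 0.13 (adjusted p = 0.0151), where 16.7% of genes were called in either direction, and with the mean of its probe sets in place of the brightest the value was -0.027. No member was called between 43 and 31 days or between 43 and 21 days, against 0.317% and 19.6% of genes. In 3 of 21 alternatives Casq1 was lower at 43 than at 21 days, at -0.60 under median centring (adjusted p = 0.036), and in 3 of 21 Ryr2 was higher at 31 than at 21 days, at 0.33 relative to heart muscle markers (adjusted p = 0.03).

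In dKO chow hearts Atp2a2 and Hrc were lower at each step as deposited. At 31 days compared with 21 days Atp2a2 fell by 0.27 ± 0.10 (adjusted p = 0.0198) and Hrc by 0.41 ± 0.13 (adjusted p = 0.00506), where 1.04% of genes fell and 62.7% rose. The Atp2a2 call was lost in 4 of 21 alternatives and that of Hrc in 2. At 43 days compared with 31 days, Hrc fell by 0.92 ± 0.12 (adjusted p = 6.47e-09), Casq1 by 0.90 ± 0.17 (adjusted p = 3.39e-05), Ryr2 by 0.30 ± 0.12 (adjusted p = 0.0465) and Atp2a2 by 0.26 ± 0.10 (adjusted p = 0.0448), where 5.44% of genes fell and 18.2% rose. At this step the Ryr2 call was lost in 10 of 21 alternatives (adjusted p up to 0.219) and the Atp2a2 call in 8 (adjusted p up to 0.287), while Hrc and Casq1 were called in all 21. Casq1 means were also lower at 43 than at 31 days on probucol, where age was not tested. They were 7.64 at 31 days and 6.98 at 43 days in dKO probucol hearts, and 7.98 and 7.16 in HET probucol hearts. In HET chow hearts they were 7.94 and 7.76. Over the whole span to 43 days, Hrc fell by 1.32 ± 0.12 (adjusted p = 3.92e-16), Casq1 by 0.93 ± 0.17 (adjusted p = 2.28e-06) and Atp2a2 by 0.53 ± 0.10 (adjusted p = 2.5e-06), where 4.96% of genes fell and 73.2% rose.

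Other age differences in these hearts depended on the scaling. The median gene was 0.50 higher at 31 than at 21 days and 0.67 higher at 43 than at 21 days. Casq2 was higher at 31 than at 21 days by 0.39 ± 0.13 (adjusted p = 0.00682), but had -0.27 under median centring. Slc8a1 was higher at 43 than at 21 days by 0.25 ± 0.12 (adjusted p = 0.0494), but had -0.60 under median centring, and Sln had 1.17 ± 0.39 over the same span without the filter (adjusted p = 0.00696). Median centring also added falls: Ryr2 had -1.03 at 43 compared with 21 days (adjusted p = 1.18e-12), Casq1 -0.69 at 31 compared with 21 days (adjusted p = 0.000526) and Casq2 -0.48 at 43 compared with 31 days (adjusted p = 0.000418).

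A wider list of calcium genes covers entry channels, release channel partners, calmodulin and its targets, and protein kinase A. Of 75 listed, 41 had a probe set and 28 were tested. At 43 days 11 were higher and 5 lower in dKO than in HET chow hearts, against 37.3% and 11.6% of all genes, with a median of 0.33 beside 0.26 over all genes. This split turned with scaling, to 6 higher and 11 lower after quantile normalization and 4 higher and 11 lower after median centring, and it widened to 17 higher and 3 lower relative to heart muscle markers. Of all 5685 genes, 1307 were higher and 1521 lower after quantile normalization, and 1113 and 1588 after median centring. Relative to heart muscle markers 3650 were higher and 281 lower, so the split of the list moved with that of all genes. At 31 days 3 of the 28 were higher and 1 lower, against 20.4% and 3.91% of genes, and at 21 days none was called by limma, against 0.686% and 1.39%. No call at 31 days was made within the larger array set, where 302 of all genes were higher and 122 lower.

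Sri, sorcin, which binds the release channel, averaged 8.48 ± 0.36 in dKO and 6.99 ± 0.45 in HET chow hearts at 43 days (log2 signal, mean ± SD), a difference of 1.498 ± 0.15 (adjusted p = 4.92e-14). Fkbp1a, whose protein also binds such channels, was higher by 0.88 ± 0.12 (adjusted p = 6.96e-10), and Rcan1, an inhibitor of calcineurin, by 1.02 ± 0.19 (adjusted p = 2.24e-06). S100a1, a calcium sensor that enhances pump activity, averaged 10.41 ± 0.19 in dKO and 11.01 ± 0.20 in HET chow hearts, a difference of -0.60 ± 0.09 (adjusted p = 3.49e-08). Tnnc1, the troponin subunit that binds calcium, was lower, at -0.32 ± 0.05 (adjusted p = 5.41e-08), Dmpk at -0.52 ± 0.09 (adjusted p = 7.15e-07), the kinase subunit Prkaca at -0.68 ± 0.15 (adjusted p = 7.59e-05) and the channel subunit Cacna2d1 at -1.33 ± 0.32 (adjusted p = 0.000241). Cacna2d1 was dim and variable in these dKO hearts, at 4.42 ± 1.05 (SD) with a lowest value of 2.29, beside a floor of 2.08. Calu (0.55 ± 0.10, adjusted p = 2.26e-06) and Prkar1a (0.47 ± 0.09, adjusted p = 1.67e-05) were higher but were not called after median centring. Relative to heart muscle markers Dmpk was no longer called, at -0.17 (adjusted p = 0.0838), and Tnnc1 was not lower, at 0.02.

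At 31 days Stim1, the sensor that opens store-operated channels, was higher in dKO than in HET chow hearts by 1.11 ± 0.26 (adjusted p = 0.000876), Ppp2ca by 0.90 (adjusted p = 0.00416) and Sri by 0.53 (adjusted p = 0.00823), and Gnas was lower, at -0.24 (adjusted p = 0.022). After median centring Sri had 0.21 (adjusted p = 0.438) and Ppp2ca 0.58 (adjusted p = 0.0524), and neither passed.

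On probucol at 43 days, 5 of the 28 were higher and 12 lower in dKO hearts, against 8.18% and 37.7% of all genes, with medians of -0.33 for the list and -0.31 for all genes. Scaling turned this split too, to 9 higher and 5 lower after quantile normalization and 9 higher and 6 lower after median centring, and it widened to 1 higher and 19 lower relative to heart muscle markers. Of all 5685 genes, 1332 were higher and 1062 lower after quantile normalization, and 1213 and 987 after median centring. Relative to heart muscle markers 150 were higher and 4048 lower, so this split also moved with that of all genes. At 31 days 1 of the 28 was higher and 9 lower, against 2.13% and 27.1%, and at 21 days none was called, against 0% and 0.176%. Sri averaged 7.02 ± 0.14 in dKO probucol hearts and 8.48 ± 0.36 in dKO chow hearts at 43 days, a difference of -1.46 ± 0.18 (adjusted p = 2.26e-11). Fkbp1a had -0.74 ± 0.13, Rcan1 -1.02 ± 0.21, Calu -0.56 ± 0.11 and Fkbp1b, the release channel partner of heart muscle, -1.17 ± 0.22 (adjusted p = 6.24e-06). Dmpk had 0.70 ± 0.10 (adjusted p = 1.17e-08), S100a1 0.54 ± 0.10 (adjusted p = 1.04e-05), Tnnc1 0.24 ± 0.06 (adjusted p = 0.000231), the dim Cacna2d1 1.07 ± 0.36 (adjusted p = 0.0103) and Cacnb2 0.54 ± 0.18 (adjusted p = 0.0112). Relative to heart muscle markers S100a1, Cacna2d1 and Cacnb2 were no longer called, at 0.09, 0.62 and 0.09, and Tnnc1 had -0.21, the opposite direction. Calu was not called after quantile normalization or median centring, at -0.21 and -0.17.

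At 31 days on probucol, Stim1 had -1.20 ± 0.28 (adjusted p = 0.000495), Fkbp1a -0.52 (adjusted p = 0.00075), Sri -0.68 (adjusted p = 0.000806), Prkar1a -0.38 (adjusted p = 0.00213) and Ppp3ca -0.60 (adjusted p = 0.0039), while Dmpk had 0.30 (adjusted p = 0.0125). Of these 6, Stim1 was the only lower gene that stayed called after both quantile normalization and median centring.

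**Figure D4:**
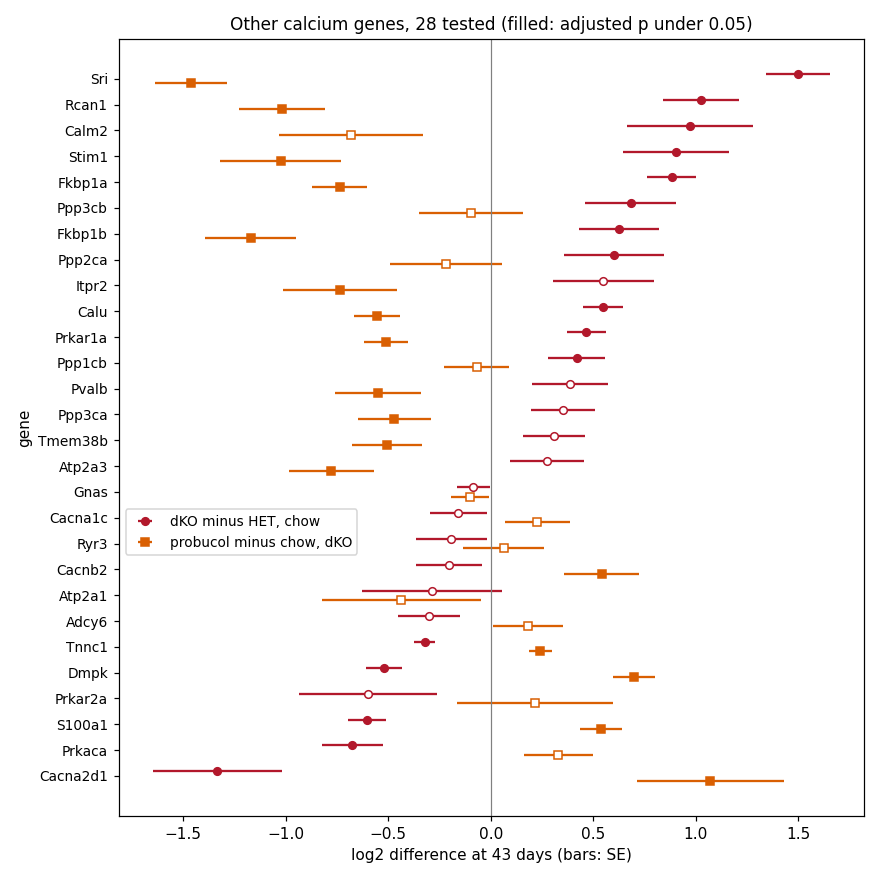
Log2 differences at 43 days with SE for the 28 tested genes of the wider calcium list, sorted by the genotype difference, with filled marks at an adjusted p under 0.05. The red circles (dKO minus HET on chow) and orange squares (probucol minus chow in dKO) share the dKO chow hearts, and Sri lies at 1.498 and -1.46.

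Across the 12 group means as deposited, Atp2a2 and Hrc had a Pearson correlation of 0.84, Hrc and Ryr2 of 0.68, Casq2 and Ryr2 of 0.67, Atp2a2 and Casq1 of 0.18, and Atp2a2 and Slc8a1 of -0.47. After median centring all 15 pairs lay between 0.50 and 0.93, with Atp2a2 and Casq1 at 0.65 and Atp2a2 and Slc8a1 at 0.64, so the differences between pairs as deposited depend on the scaling. These values describe group means that come from the same arrays. As deposited, the genes most like Atp2a2 were Dmpk (0.963), the heavy chain Myh6 (0.951) and Dlst (0.936), and those most like Hrc were the mitochondrial genes Pdha1 (0.983), Sdha (0.974) and Ndufa5 (0.974). For Ryr2 they were Fhod3 (0.935), Ndufaf4 (0.931) and Gpr162 (0.908), and for Casq2 Hoxa4 (0.927), Tmx2 (0.925) and Uros (0.896). Slc8a1 was nearest to Slc25a36 (0.850), the gap junction gene Gja1 (0.841) and Eprs (0.840), and Casq1 to Nrep (0.810), Acy1 (0.797) and Phpt1 (0.780). After median centring the nearest genes of Atp2a2 were the same 3, but none of those of Casq1 was, with Pnkd (0.962), Slc25a5 (0.928) and Cilp2 (0.925) in their place.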

How the data were processed

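The deposited values were linear signal intensities of 12488 probe sets on 88 arrays, and per the submitters' processing notes the program was MAS5. How arrays were scaled was not given in the sources used here. Per the labels' protocols total RNA was extracted with Trizol and labelled with biotin. Groups came from genotype, age and diet. For dKO chow replicate 2 at 21 days the description names another age, and title and age field were followed. Intensities were floored and taken to log2 with no further scaling. Of 10855 probe sets with 1 symbol, those in the upper 60% by mean (at least 30.0) were kept, and the brightest stood for its gene. Means of the 12 groups were estimated from all arrays by limma 3.58.1 (R 4.3.3, data.table version 1.17.8), with an intensity trend and Benjamini-Hochberg adjustment, and the fit was tested on simulated data. The pump could not be set against Pln, which had no probe set with its symbol alone. Replicate numbers did not pair samples, with a mean residual correlation of 0.00789 over 358 same-numbered pairs and -0.000629 over 3132 others. All members were named, with Scarb1 and Apoe, up to 5 wider-list genes per direction in each genotype comparison on chow and each probucol comparison in dKO hearts, and the 3 most similar genes. The members, lists and comparisons were chosen with earlier results of these data known. Marker lists of endothelium, smooth muscle, thymus, red cells and brown fat were also scored: at 43 days on chow 2 of 6, 1 of 4, 0 of 2, 2 of 2 and 0 of 1 tested markers were higher in dKO hearts, and 1 smooth muscle marker was lower. Over all genes 37.3% were called higher and 11.6% lower in that comparison.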

Additional observations from a re-analysis of the deposited data

Results flagged for a closer look

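Single hearts stood apart from the rest of their group in 6 of 64 sets of hearts and probe sets examined, where chance gives about 1 in 20. Hrc had a log2 signal of 10.75 in dKO chow replicate 4 at 21 days (next 10.02), 10.56 in dKO probucol replicate 3 at 21 days (next 10.20), 10.92 in HET chow replicate 5 at 31 days (next 10.41) and 10.96 in HET chow replicate 6 at 43 days (next 10.52), all of them high. Casq2 was low in dKO chow replicate 1 at 31 days, at 6.79 (next 7.38). The second probe set of Slc8a1 was low in dKO chow replicate 2 at 31 days, at 2.76 (next 4.71).

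The genotype difference on chow changed with age by -0.51 for Hrc between 21 and 31 days, and between 21 and 43 days by -1.57 for Hrc, -0.62 for Casq1, -0.45 for Ryr2 and -0.43 for Atp2a2. The probucol effect was larger in dKO than in HET hearts by 0.81 for Hrc at 31 days, by 2.04 for Hrc, 0.99 for Ryr2 and 0.71 for Atp2a2 at 43 days, and over the ages averaged by 1.005 for Hrc, 0.42 for Ryr2 and 0.37 for Casq2. Each of these was tested as a difference of differences in limma, and those for probucol at 43 days rest on 2 HET probucol hearts.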

How the results depend on the processing

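Hrc kept its call and direction for genotype on chow at 31 and 43 days and for probucol in dKO hearts at the same ages in all 21 alternatives, as did Casq1 for genotype and Atp2a2 for probucol at 43 days. Of the members, those lower in dKO chow hearts numbered 0 at 21 days under median centring, median centring combined with a block for array set, an added minimum of 1.5-fold, the larger array set only and centring on heart muscle markers. In the same order, 51, 28, 66, 5 and 34 of all 5685 genes were lower. At 31 days the lower members numbered 4 after quantile normalization, 6 under median centring, 5 under median centring combined with a block for array set, and 1 with only the groups compared, array weights, 1.5-fold or centring on heart muscle markers. Of all genes, 730, 1305, 678, 166, 196, 49 and 79 were lower in these settings, in that order. At 43 days the lower members numbered 3 at 1.5-fold and 2 centred on heart muscle markers, beside 373 and 281 of all genes. Members higher on probucol in dKO hearts numbered 5 after quantile normalization and 1 at 1.5-fold, without the 6 arrays that stood apart on the first residual component or centred on heart muscle markers at 31 days, and 2 at 1.5-fold or centred on heart muscle markers at 43 days. Of all genes, 713, 21, 124 and 23 were higher at 31 days and 282 and 150 at 43 days, in the same order. The replicate number as a block changed none of the members' counts, which stayed at 1, 2 and 5 for genotype and 0, 2 and 4 for probucol. With that block, 117, 233 and 693 of all genes were lower for genotype, and 5, 139 and 511 were higher for probucol. Reversals touched Slc8a1, Casq2 and Ryr2. Slc8a1 had -0.54 for its genotype change between 21 and 43 days under median centring, 0.32 for probucol in dKO hearts at 43 days after quantile normalization, and -0.027 between 31 and 21 days in HET chow hearts with the mean of its probe sets. In dKO chow hearts at 31 against 21 days, Casq2 had -0.095 after quantile normalization, -0.27 under median centring and -0.21 with the array set added, Ryr2 had -0.27, -0.53 and -0.56 in the same order, and Slc8a1 had -0.51 under median centring and -0.47 with the array set added. At 43 against 21 days, Casq2 had -0.58, -0.75 and -0.69, and Slc8a1 -0.28, -0.60 and -0.56. The cause was not tested. The number of arrays, 2 or 3 in the HET probucol groups, limits precision. Dim signals such as those of Sln may understate differences, which was not tested.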
